A study of Homo sapiens with 11 samples.

Results

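The genes described here are BRCA1, BRCA2, PALB2, BARD1 and FANCD2, which act in homologous recombination and in the repair of DNA crosslinks, and MSH6 and PMS2, which act in mismatch repair. They were chosen by symbol and matched by Ensembl identifier, 7 of 60676 genes in the table of read counts. Their measured values were not part of that rule, but earlier results of these data were known when the genes were chosen. RNA was sequenced from RWPE1, a line of prostate epithelial cells immortalised with papillomavirus genes, in normoxia (0 h, 3 libraries, labelled untreated) and after 6 h (3 libraries), 12 h (3 libraries) and 24 h (2 libraries) at 1% oxygen. The medium of the hypoxic cells also received 10 mM HEPES buffer, so that low oxygen and the added buffer cannot be told apart. All 11 libraries came from the same line, nothing stated whether replicates were separate cultures, and the p-values therefore measure only the spread between these libraries. The study asked which transcripts change as non-tumorigenic prostate cells stay in hypoxia.

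Homologous recombination repairs a broken chromosome by copying the intact sister chromatid and works in S and G2 phase. BRCA1 and BARD1 form a ubiquitin ligase that promotes resection of the broken ends, PALB2 joins BRCA1 to BRCA2, and BRCA2 helps to load the protein filament that searches for the sister. FANCD2 is ubiquitinated together with FANCI when a replication fork meets a DNA crosslink. In mismatch repair, MSH6 helps to recognise base mismatches left by replication, and PMS2 provides the nuclease that nicks the new strand. Germline loss of the first group predisposes to breast, ovarian and prostate cancer or causes Fanconi anaemia, and germline loss of the second group causes Lynch syndrome.

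Of the 7 genes, 6 stood lower in hypoxia than in normoxia and MSH6 stood higher at 6 h. BRCA1, BARD1, FANCD2 and PMS2 were lower at all 3 times by 1.83- to 4.27-fold. BRCA2 was 2.996-fold lower at 6 h and PALB2 was lower at 6 h and 24 h, while MSH6 was 1.71-fold higher at 6 h and 1.63-fold higher at 12 h. The levels below are counts per 1000000 reads (CPM), scaled between libraries with trimmed mean of M-values (TMM) factors. A change was called where edgeR's quasi-likelihood test over 19981 genes gave a Benjamini-Hochberg adjusted p under 0.05, and all 7 genes were among those tested.

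On the GRCh38 genome with GENCODE release 44, BRCA1 (ENSG00000012048) lies at chr17:43044295-43170245 on the minus strand and BRCA2 (ENSG00000139618) at chr13:32315086-32400268 on the plus strand. PALB2 (ENSG00000083093) is annotated at chr16:23603160-23641321 on the minus strand, BARD1 (ENSG00000138376) at chr2:214725646-214809683 on the minus strand and FANCD2 (ENSG00000144554) at chr3:10026370-10101932 on the plus strand. MSH6 (ENSG00000116062) spans chr2:47695530-47810063 on the plus strand and PMS2 (ENSG00000122512) spans chr7:5970925-6009130 on the minus strand. Their canonical transcripts are long, from 4008 bases for PALB2 to 11954 bases for BRCA2, and were longer than those of 71.2% to 98.4% of the genes tested.

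The sequences upstream of 3 of the genes are shown because one of them (MSH6) rose and the others (PMS2 and BARD1) fell. They are the stretches of the RefSeq promoter windows (GRCh38.p14, 250 bases before to 50 bases after a transcript start) that no annotated exon covers, written 5′ to 3′ on the strand of the gene. Capitals mark the letters GCGTG or ACGTG, the core of the element bound by hypoxia-inducible factors (HIF), the letters CCAAT, bound by NF-Y, and the letters TTTNNCGC, an E2F-type element, each on either strand.
MSH6, chr2:47782895-47783081, plus strand: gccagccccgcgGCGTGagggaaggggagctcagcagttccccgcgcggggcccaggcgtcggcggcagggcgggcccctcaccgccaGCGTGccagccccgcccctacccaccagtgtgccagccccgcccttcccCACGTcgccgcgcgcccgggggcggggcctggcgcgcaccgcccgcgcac
PMS2, chr7:6009131-6009254, minus strand: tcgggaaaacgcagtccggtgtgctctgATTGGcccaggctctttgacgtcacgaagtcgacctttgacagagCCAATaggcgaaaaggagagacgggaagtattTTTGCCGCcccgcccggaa
BARD1, chr2:214809684-214809933, minus strand: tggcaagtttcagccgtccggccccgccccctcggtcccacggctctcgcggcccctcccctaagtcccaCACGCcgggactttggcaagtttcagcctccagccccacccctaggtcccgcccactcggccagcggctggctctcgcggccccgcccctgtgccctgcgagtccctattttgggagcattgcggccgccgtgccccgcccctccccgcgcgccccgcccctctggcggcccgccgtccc

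The MSH6 stretch holds 3 HIF core letters, at positions -238, -162 and -113 from the transcript start, and the BARD1 stretch holds 1 at -180. The PMS2 stretch holds an E2F-type match at -43 and CCAAT matches at -120 and -75. The 7 genes have 12 whole windows, since some have several starts, and these also reach into exons not printed here. The 12 windows are not separate promoters. Those of PMS2 overlap, so that its E2F-type and CCAAT sites count in each, some of MSH6 nearly coincide, and a BRCA1 window lies outside the annotated gene. The shares below count windows and were not tested. The HIF core was found in 7 of the 12 windows (58.3%), 1 window of each gene, and in 48.4% of all 35116 RefSeq promoters. These windows held 4 matches for BRCA2, 3 for MSH6, 2 for PALB2 and 1 each for BRCA1, BARD1, FANCD2 and PMS2. MSH6, which rose, thus did not hold the most, and no link between matches and changes was tested. CCAAT was found in 5 of the 12 windows (41.7%; BRCA1, PALB2, MSH6 and PMS2) against 34.6% of all promoters, and TTTNNCGC in 4 (33.3%; FANCD2, MSH6 and PMS2) against 6.89%. The letters TTTGAA or TTCGAA, the cell cycle genes homology region (CHR) bound by the DREAM complex, were in 0 of the 12 and in 16.4% of all promoters. Both strands were searched, and ACGTG and its reverse complement were counted separately where they overlap in CACGTG. These are matches of letters and no binding was measured.

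PMS2 has partial copies elsewhere on chromosome 7, among them the transcribed pseudogene PMS2CL. The last 75 bases of exon 13 of PMS2 (exon at chr7:5978596-5978696) are shown beside their copy. A read of 75 bases can tell the genes apart here only where it covers the differing base. The longest identical run of this exon, 78 bases, is longer than a read. The capital marks the only position at which the exon differs, 1 in 101 bases.
PMS2, chr7:5978596-5978670, minus strand: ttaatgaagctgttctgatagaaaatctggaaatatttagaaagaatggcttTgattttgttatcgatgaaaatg
PMS2CL, chr7:6746114-6746188, plus strand: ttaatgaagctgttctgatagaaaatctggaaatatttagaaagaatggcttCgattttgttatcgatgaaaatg

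Each library held between 27496009 and 49488345 counts. In hypoxia the 13 control genes of the HIF response were called higher at each of the 3 times, among them CA9, a carbonic anhydrase, by 3.17, 4.40 and 5.68 on the log2 scale at 6, 12 and 24 h. All 8 basal epithelial markers were present in these cells at a mean of at least 1 CPM. Of the 10 simple or luminal epithelial markers, 6 reached that level, while KLK3 had 0 counts in every library. The summed level of these 10 went from 1080-1140 CPM at 0 h to 1840-3090 CPM at 24 h. In contrast, 0 of the 4 endothelial and 0 of the 5 leukocyte markers reached a mean of 1 CPM. Of the 8 fibroblast and smooth muscle markers, COL1A1 and ACTA2 did, and the summed level of the list went from 48.6-61.9 CPM at 0 h to 29.2-31.3 CPM at 24 h. The 24 h libraries differed from each other more than any other pair of replicates. The second had a TMM factor of 0.539 and 33.7% of its counts in its 50 highest genes, against at most 25.6% elsewhere. In that library log2 CPM relative to normoxia fell by 0.359 for each doubling of transcript length, and in the first 24 h library by 0.145, against slopes of -0.071 to 0.0374 in the other libraries. Mitochondrial genes took 10.2% to 10.3% of the counts in normoxia and 0.369% to 6.78% in hypoxia. For the 7 genes, the 24 h changes against normoxia are plotted below with and without each 24 h library. For the length trend, these changes are also given with an offset for length. Other genes and the lists have values without a 24 h library only where stated. None of those genes or lists has a value with the offset. The part of the mitochondrial share and of the fibroblast markers in the results was not tested.

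At 6 h, 7 of the 7 genes were called (1 higher, 6 lower), where 52.8% of all genes tested were called, 25.1% higher and 27.7% lower. At 12 h, 5 were called (1 higher, 4 lower) against 51.2% of all genes, 24.2% higher and 27.1% lower. At 24 h, 5 were called, all lower, against 61.2% of all genes, 29.9% higher and 31.3% lower. The median log2 fold change of the 7 genes was -1.22, -0.88 and -1.18 at the 3 times, and that of all genes tested was -0.0021, -0.033 and -0.065. When library size alone was used in place of TMM, the median of all genes moved to -0.32, -0.50 and -0.97, and the share of the called genes that were higher went from 47.6%, 47.2% and 48.8% to 27.6%, 20.04% and 16.4%. Under that scaling the medians of the 7 genes were -1.54, -1.34 and -2.11. Less RNA per cell and fewer cells in the phase that expresses a gene cannot be told apart in these bulk samples.

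**Figure D1:**
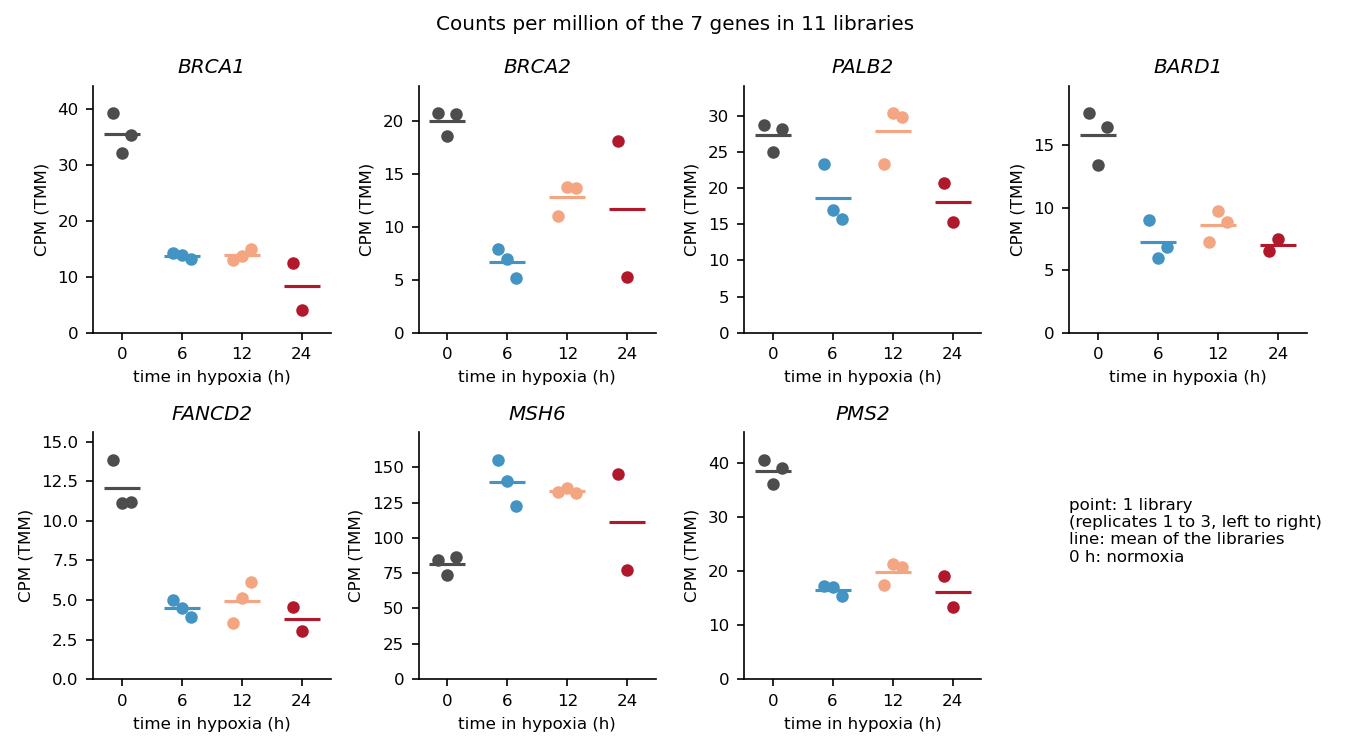
CPM (y axis, from 0, TMM scaled) of each of the 7 genes against the hours in hypoxia (x axis), with 1 point for each library and a line at the mean. BRCA1, BARD1, FANCD2 and PMS2 were lower in all 8 hypoxic libraries than in any normoxic library, MSH6 was higher in 7 of the 8 on this scaling, and the 24 h points of BRCA1, BRCA2 and MSH6 lie far apart.

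The transcripts of both subunits of the BRCA1-BARD1 ligase were lower at every time. BRCA1 stood at 39.3, 32.1 and 35.4 CPM in the normoxic libraries, at 14.2, 14.0 and 13.2 CPM at 6 h, at 13.0, 13.8 and 15.01 CPM at 12 h, and at 12.5 and 3.98 CPM at 24 h. None of the 8 hypoxic libraries reached the lowest normoxic one, and the second 24 h library, with 73 counts, was the lowest of all. The log2 fold change was -1.37 ± 0.28 (SE) at 6 h, -1.35 ± 0.28 at 12 h and -2.09 ± 0.34 at 24 h (adjusted p = 0.00137, 0.00168 and 0.000197, edgeR). Without the first 24 h library the 24 h value was -3.22 and without the second it was -1.53, each still called.

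BARD1, the RING partner that stabilises BRCA1, stood at 17.6, 13.5 and 16.5 CPM in normoxia, at 8.99, 5.97 and 6.86 CPM at 6 h, at 7.24, 9.75 and 8.89 CPM at 12 h, and at 6.50 and 7.52 CPM at 24 h. Every hypoxic library lay below every normoxic one, and the 24 h pair lay close together. Its log2 fold changes were -1.12 ± 0.19, -0.88 ± 0.19 and -1.18 ± 0.22 (SE; adjusted p = 0.000369, 0.00226 and 0.000639, edgeR). The call at 24 h was lost in limma-voom with sample quality weights (adjusted p = 0.0504, in a range of 2.15e-06 to 0.0504 over 22 alternatives).

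The ratio of BRCA1 to BARD1 within a library, in counts per kilobase of canonical transcript on the log2 scale, was 0.79, 0.88 and 0.73 in normoxia. It was 0.29, 0.85 and 0.57 at 6 h, 0.47, 0.13 and 0.38 at 12 h, and 0.57 and -1.29 at 24 h. All 12 h libraries were below all normoxic ones, by a mean of 0.48 on the log2 scale, while the 6 h libraries overlapped them. An exact permutation test (two-sided) gave p = 0.1 at 12 h, the smallest that 3 libraries against 3 allow, and p = 0.3 at 6 h. After adjustment over 15 such tests of partner ratios these were 0.136 and 0.346. The 24 h pair disagreed by more than any difference between times.

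BRCA2, the filament loader, was called lower at 6 h. It stood at 20.7, 18.6 and 20.6 CPM in normoxia, at 7.93, 6.97 and 5.16 CPM at 6 h, at 11.03, 13.8 and 13.6 CPM at 12 h, and at 18.1 and 5.23 CPM at 24 h. All hypoxic libraries lay below the normoxic ones, the 12 h libraries lay above the 6 h libraries, and the first 24 h library nearly reached the normoxic range. The log2 fold change at 6 h was -1.58 ± 0.33 (SE, adjusted p = 0.00153, edgeR). At 12 h it was -0.64 ± 0.32 (adjusted p = 0.113) and at 24 h -0.76 ± 0.37 (adjusted p = 0.0886), neither of which was called.

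The 24 h libraries differed in the size of the BRCA2 difference from normoxia. Without the first, the log2 fold change at 24 h was -1.99 (adjusted p = 2.43e-05, edgeR), and without the second it was -0.16 (adjusted p = 0.544), in a range of 2.43e-05 to 0.544 over all alternatives. It was also called in limma-voom (-0.99, adjusted p = 0.0318), with library size alone (-1.53, 0.0152) and without a filter (-0.87, 0.0011), so that 4 of the 22 alternatives called it. At 12 h the change was called under 6 of the 22 alternatives, among them leaving out either 24 h library (-0.66 without the first and -0.64 without the second, adjusted p = 0.00217 and 0.0026, in a range of 5.05e-05 to 0.265), and the fit shares 1 estimate of the spread over all groups.

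PALB2, the bridge between BRCA1 and BRCA2, was called lower at 6 h and 24 h. It stood at 28.9, 25.03 and 28.3 CPM in normoxia, at 23.4, 17.0 and 15.8 CPM at 6 h, at 23.4, 30.4 and 29.9 CPM at 12 h, and at 20.8 and 15.4 CPM at 24 h. The 6 h and 24 h libraries lay below the normoxic ones, the first 6 h library by little, and the 12 h libraries covered the normoxic range. The log2 fold change was -0.55 ± 0.18 (SE) at 6 h, 0.03 ± 0.18 at 12 h and -0.60 ± 0.21 at 24 h (adjusted p = 0.022, 0.911 and 0.0243, edgeR).

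These PALB2 calls were near the threshold. At 6 h the call was lost without the first or the third normoxic library (adjusted p = 0.0684 and 0.062) and without the second or the third 6 h library (0.0821 and 0.0868), in a range of 0.000494 to 0.0868. At 24 h the call was lost without the first or the third normoxic library (0.0629 and 0.0578) and without the second 24 h library (-0.42, adjusted p = 0.12). It was lost as well in limma-voom with sample quality weights (-0.62, adjusted p = 0.179) and with the replicate block and the length and GC offset together (-0.47, 0.0564), in a range of 0.00107 to 0.179 over all alternatives. With library size alone the 12 h value turned to -0.44 (adjusted p = 0.172, in a range of 0.172 to 1.0).

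The log2 ratio of BRCA2 to PALB2 was -2.06, -2.01 and -2.03 in normoxia, -3.13, -2.86 and -3.19 at 6 h, and -2.66, -2.72 and -2.71 at 12 h. The 3 groups did not overlap, with BRCA2 lower by 1.03 and 0.66 on the log2 scale relative to PALB2 at 6 and 12 h (exact permutation p = 0.1 each, the smallest possible, and 0.136 after adjustment). At 24 h the ratios were -1.77 and -3.13, on either side of the normoxic values.

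FANCD2, the effector of the crosslink repair pathway, stood at 13.9, 11.1 and 11.2 CPM in normoxia, at 4.99, 4.51 and 3.90 CPM at 6 h, at 3.55, 5.16 and 6.14 CPM at 12 h, and at 4.54 and 3.05 CPM at 24 h. Every hypoxic library lay below every normoxic one, with no overlap at any time. The log2 fold changes were -1.44 ± 0.23, -1.28 ± 0.22 and -1.66 ± 0.27 (SE; adjusted p = 0.000207, 0.000551 and 0.000198, edgeR), and the calls held under all 22 alternatives. Of the windows of 75 bases along its canonical transcript, 6.47% also occur in another annotated gene, and the pseudogene and the antisense gene were low, with FANCD2P2 at 0.374 CPM and FANCD2OS at 0.0575 CPM in normoxia.

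FANCI is the partner with which FANCD2 clamps onto DNA. The log2 ratio of FANCD2 to FANCI was -2.22, -2.31 and -2.48 in normoxia, -3.19, -3.37 and -3.19 at 6 h, -3.51, -3.07 and -2.92 at 12 h, and -3.36 and -2.72 at 24 h. All 8 hypoxic ratios were below the normoxic ones, by a mean of 0.91, 0.83 and 0.70 on the log2 scale at the 3 times (exact permutation p = 0.1 at 6 and 12 h, and 0.136 after adjustment). FANCI itself was at -0.52 at 6 h and -0.48 at 12 h on the scale of log2 fold change, neither called (adjusted p = 0.0812 and 0.102, edgeR), and was lower at 24 h (-0.86, adjusted p = 0.0151). The 24 h libraries stood at 43.5 and 18.9 CPM of FANCI, against 60.1, 51.4 and 58.3 CPM in normoxia. The second was thus much the lower, and the first was near the highest 6 h and 12 h libraries (43.5 and 43.2 CPM). With 2 libraries at 24 h no exact test was made there.

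**Figure D2:**
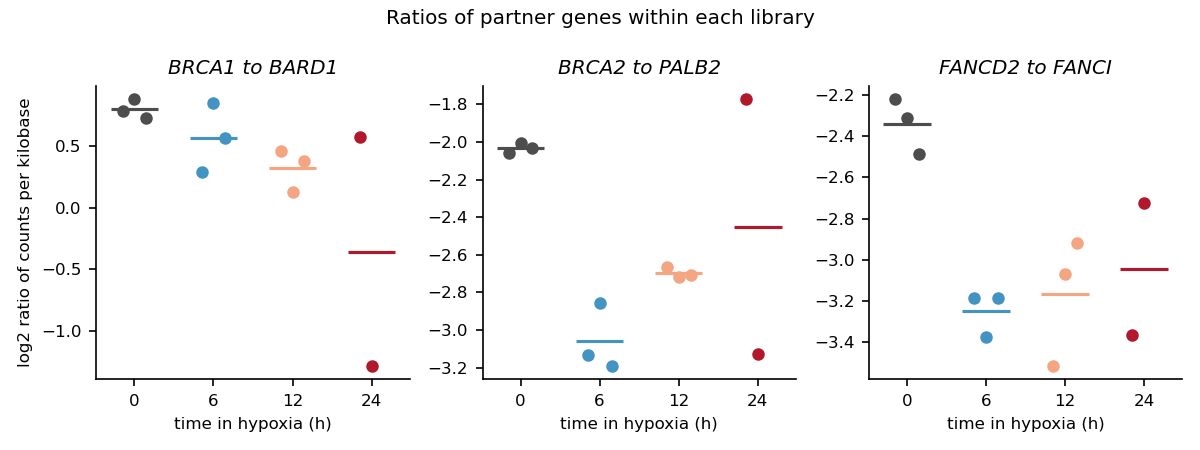
The log2 ratio of counts per kilobase (y axis, a separate scale in each panel) for 3 pairs of partner genes against the hours in hypoxia (x axis), with 1 point for each library and a line at the mean. The ratio of FANCD2 to FANCI was lower in every hypoxic library than in normoxia, and that of BRCA2 to PALB2 had its lowest mean at 6 h (-3.06).

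MSH6, which recognises mismatches, was the 1 gene of the 7 that rose. It stood at 84.3, 73.7 and 86.7 CPM in normoxia, at 155, 140.3 and 123 CPM at 6 h, at 133, 135 and 131 CPM at 12 h, and at 145 and 76.9 CPM at 24 h. The 6 h and 12 h libraries lay above all normoxic ones, the first 24 h library did too, and the second 24 h library lay within the normoxic range. The log2 fold change was 0.77 ± 0.20 (SE) at 6 h and 0.71 ± 0.20 at 12 h (adjusted p = 0.00543 and 0.00954, edgeR). At 24 h it was 0.45 ± 0.22 (adjusted p = 0.0903, not called), and it was 0.81 without the second 24 h library (adjusted p = 0.000324) and -0.14 without the first (adjusted p = 0.424), in a range of 0.000324 to 0.424.

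The rise of MSH6 was relative to other genes. With DESeq2 size factors in edgeR it was 0.78 at 6 h and 0.69 at 12 h, both called, and with library size alone its log2 fold change was 0.45 at 6 h (adjusted p = 0.218) and 0.24 at 12 h (adjusted p = 0.511), where the median of all genes stood at -0.32 and -0.50, and it was -0.37 at 24 h (adjusted p = 0.331). Over all alternatives its adjusted p ranged from 1.73e-05 to 0.218 at 6 h and from 1.01e-06 to 0.511 at 12 h. FBXO11, a ubiquitin ligase subunit on the opposite strand, covers 12.4% of the MSH6 canonical transcript and 22.7% of all annotated exonic bases of MSH6. FBXO11 was higher at 6 h (log2 fold change 0.64, adjusted p = 0.0379, edgeR) and was 0.21 at 12 h (adjusted p = 0.475) and -0.56 at 24 h (adjusted p = 0.0944). The library kit marked the strand, the strand setting of the counting was not given in the sources used here, and the part of FBXO11 in the MSH6 counts was not tested.

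PMS2, the mismatch repair nuclease, fell at all 3 times with the smallest errors of the 7 genes. It stood at 40.6, 36.1 and 39.1 CPM in normoxia, at 17.2, 17.0 and 15.4 CPM at 6 h, at 17.4, 21.4 and 20.7 CPM at 12 h, and at 19.1 and 13.3 CPM at 24 h. The highest hypoxic library was far below the lowest normoxic one. The log2 fold changes were -1.22 ± 0.15, -0.96 ± 0.15 and -1.25 ± 0.18 (SE; adjusted p = 4.36e-05, 0.000307 and 7.99e-05, edgeR), called under all 22 alternatives.

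PMS2 and its copy PMS2CL, compared by sequence above, were both lower. Of the windows of 75 bases along the PMS2 canonical transcript, 27.5% also occur in another annotated gene and 26.5% in the gene ENSG00000290835, which was not analysed here. PMS2CL shares 9.90% of the windows, with exons 12 and 15 of the coding sequence 100% contained in it. PMS2CL stood at a mean of 20.3 CPM in normoxia and at 12.2, 14.7 and 12.9 CPM at 6, 12 and 24 h, and its log2 fold changes were -0.73, -0.46 and -0.65 (adjusted p = 0.00118, 0.0177 and 0.00493, edgeR). How reads that fit both genes were counted was not given in the sources used here, so the split between PMS2 and its copies is uncertain.

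Between the hypoxic times the 7 genes mostly did not differ by the test. From 6 h to 12 h, 0 of the 7 were called, where 4.95% of all genes tested were. BRCA2 was higher at 12 h than at 6 h by 0.95 ± 0.33 on the log2 scale (SE, adjusted p = 0.119, edgeR) and PALB2 by 0.58 ± 0.18 (adjusted p = 0.09), both with groups that did not overlap. Both passed the threshold without the first 24 h library (adjusted p = 0.00243 and 0.0207) and without the second (0.0022 and 0.0177), over ranges of 0.00037 to 0.327 for BRCA2 and 0.00179 to 0.386 for PALB2. At an unadjusted p under 0.05, BRCA2 and PALB2 passed as well, while limma-voom called 0 of the 7, and DESeq2 and limma-voom with quality weights called 1 and 2.

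From 12 h to 24 h, 1 of the 7 was called, where 28.4% of all genes tested were. PALB2 was lower at 24 h by 0.63 on the log2 scale (log2 fold change -0.63 ± 0.21 SE, adjusted p = 0.0403, edgeR), with both 24 h libraries below all 12 h libraries. The call was lost under 12 of the 22 alternatives (adjusted p from 0.00734 to 0.27). Among them were leaving out any 1 normoxic library (0.0599, 0.0561 and 0.0614 for the first, second and the third), the second 6 h library (0.0501), the second or the third 12 h library (0.108 and 0.113) or the second 24 h library (-0.44, adjusted p = 0.184). Without the first 24 h library 5 of the 7 were called lower, namely BRCA1 (-1.83), BRCA2 (-1.32), PALB2 (-0.89), MSH6 (-0.82) and PMS2 (-0.60), and without the second 0 were.

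**Figure D3:**
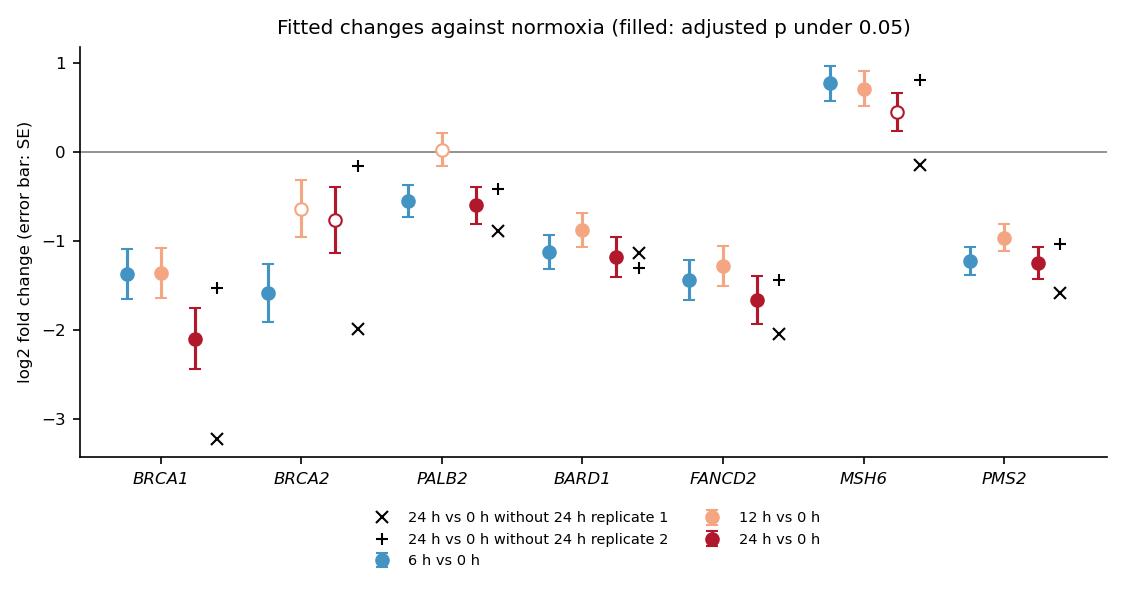
Fitted log2 fold changes against normoxia (y axis, error bars are SE) for the 7 genes at 6, 12 and 24 h, filled where the adjusted p was under 0.05, with black marks for the 24 h value when either 24 h library is left out. BRCA2 at 24 h moved between -1.99 and -0.16 and MSH6 between -0.14 and 0.81, while BARD1 moved between -1.30 and -1.13.

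Since all 7 transcripts are long and the 24 h libraries lost signal with length, the fit was repeated with an offset for transcript length and GC content in each library. At 24 h the log2 fold change of BRCA1 was then -1.82, of FANCD2 -1.40, of PMS2 -0.90, of BARD1 -0.86, of PALB2 -0.46 and of BRCA2 -0.25. The first 5 of these were still called, and MSH6 was called higher (0.63, adjusted p = 0.00328, edgeR, in the range given above). At 6 h the same offset moved each of the 7 values by less than its SE.

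In normoxia MSH6 stood highest and BRCA2 lowest of the 7 genes per length of transcript. Per kilobase of canonical transcript, MSH6 stood at 19.1 ± 1.63 CPM (SD, n = 3), PMS2 at 7.58 ± 0.446, PALB2 at 6.83 ± 0.515, BRCA1 at 5.02 ± 0.504, BARD1 at 2.89 ± 0.388, FANCD2 at 2.37 ± 0.307 and BRCA2 at 1.67 ± 0.101. PMS2 and PALB2 overlapped between libraries, and so did BARD1 and FANCD2, while the other neighbours in this order did not.

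The genes whose pattern over the 11 libraries was closest to each of the 7 were found by the root mean square difference of log2 CPM, each gene centred on its own mean, among 11905 protein-coding genes with a mean of at least 1 CPM. PMS2 was closest to CENPI (0.0888) and TUBGCP3 (0.0985), MSH6 to MKLN1 (0.0938) and TEX2 (0.0978), and PALB2 to POLD3 (0.112) and ZNF507 (0.123). BARD1 was closest to RMI1 (0.132) and CORO2A (0.134), FANCD2 to PHLDB1 (0.158) and PPIL2 (0.163), BRCA1 to ARHGEF4 (0.165) and RALGPS1 (0.187), and BRCA2 to HRK (0.196) and FNIP1 (0.224). Among the 7 themselves FANCD2 and PMS2 were the most alike (0.203), and PMS2 was in place 11 of all genes for FANCD2. MSH6 and BRCA1 were the least alike (1.04), above the median distance of BRCA1 to all genes (0.941). The measure shares library depth and the length trend of the 24 h libraries between genes.

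Other genes of the repair pathways were described through lists that did not include the 7 genes, and those said to rise or fall passed the test at the times given. Of 48 homologous recombination genes, 25, 17 and 15 were lower and 3, 6 and 9 were higher at 6, 12 and 24 h, with medians of -0.61, -0.41 and -0.27 on the log2 scale. The lower genes were 52.1%, 35.4% and 31.2% of the list against 27.7%, 27.1% and 31.3% of all genes tested, and the higher ones 6.25%, 12.5% and 18.8% against 25.1%, 24.2% and 29.9%, so that at 24 h the lower share was near that of all genes. With library size alone 29, 32 and 35 were lower and 2, 2 and 1 higher. SLX4, a scaffold of nucleases that cut joined DNA molecules, fell by 1.38, 1.31 and 2.96 on the log2 scale, and EME1, the partner of the MUS81 nuclease, fell by 2.32, 1.90 and 2.35. RNF8, a ubiquitin ligase at DNA breaks, rose by 1.81, 1.95 and 2.38. SWI5, a cofactor of strand exchange, rose by 0.49 at 12 h and 1.37 at 24 h (adjusted p = 0.0295 and 5.98e-05, edgeR). Of the BRCA1 partners, the helicase BRIP1 was not called at any time (-0.55, -0.60 and -0.40, adjusted p = 0.103, 0.0828 and 0.27), and RBBP8, which starts resection, was lower at 6 h (-0.44, adjusted p = 0.029) and not called later (-0.18 and 0.0028). The count of higher genes at 12 h was 3 in place of 6 without any 1 normoxic library and without the first or the third 12 h library.

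Of 20 Fanconi anaemia genes other than FANCD2, 9, 8 and 8 were lower and 3, 3 and 4 were higher, with medians of -0.48, -0.46 and 0.27. The part of the length trend of the 24 h libraries in the 24 h values of this list, and of every other list here, was not tested. The lower genes were 45%, 40% and 40% of the list, against 27.7%, 27.1% and 31.3% of all genes, and the higher ones 15%, 15% and 20%, against 25.1%, 24.2% and 29.9%. Under library size alone the counts were 12, 14 and 12 lower and 1, 1 and 2 higher. ERCC4, a nuclease that unhooks crosslinks, fell by 1.17, 0.47 and 1.36 on the log2 scale, and FAAP24, which recruits the pathway to DNA, fell by 1.00 at 6 h and 1.30 at 24 h. CENPX, a histone-fold partner of FANCM, rose by 0.71, 1.10 and 2.21, and ERCC1, the partner of ERCC4, rose by 0.57, 0.81 and 1.67. The lower count at 12 h was 4 without the first 12 h library and 5 without the third normoxic or the third 12 h library. The higher count at 6 h was 1 without any 1 normoxic library or without the second or the third 6 h library, at 12 h it was 5 without either 24 h library, and at 24 h it was 7 without the first.

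Of 20 mismatch repair genes other than MSH6 and PMS2, 7, 5 and 1 were lower and 2, 1 and 5 were higher, with medians of -0.23, 0.02 and 0.20. EXO1, RPA1, RPA2 and RPA3 were also in the homologous recombination list, so that these lists are not separate. The lower genes were 35%, 25% and 5% of the list, against 27.7%, 27.1% and 31.3% of all genes, and the higher ones 10%, 5% and 25%, against 25.1%, 24.2% and 29.9%. The balance at 24 h turned under library size alone, with 10, 9 and 13 lower and 0 higher at each time. LIG1, the ligase that seals the repaired strand, fell by 1.12, 0.95 and 1.25 on the log2 scale, and was the 1 gene lower at 24 h. PCNA, the sliding clamp, rose by 0.59 at 6 h and 1.15 at 24 h, and RPA2, which covers single-stranded DNA, rose by 0.35 at 12 h and 0.99 at 24 h. The lower count at 12 h was 3 without the first or the third normoxic or the third 12 h library. At 24 h it was 2 without the second normoxic, the first or the third 6 h, the first or second 12 h or either 24 h library, and the higher count was 3 without the second normoxic or the second 12 h library. The higher count at 6 h was 1 without the second normoxic or the first 6 h library, and that at 12 h was 0 without any 1 normoxic or 12 h library and 2 without either 24 h library.

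For comparison, of 19 genes of non-homologous end joining, which rejoins breaks without a template, 7, 6 and 8 were lower and 4, 2 and 6 higher. These were 36.8%, 31.6% and 42.1% of the list lower, against 27.7%, 27.1% and 31.3% of all genes, and 21.1%, 10.5% and 31.6% higher, against 25.1%, 24.2% and 29.9%, and under library size alone 10, 10 and 13 were lower and 1, 1 and 2 higher. XRCC6, the Ku70 subunit, rose by 0.71, 0.96 and 1.83 on the log2 scale. SHLD1, a shieldin subunit that blocks resection, was higher at 24 h by 1.67, while APLF fell by 1.38, 1.27 and 1.63 and NHEJ1, at 0.387 CPM in normoxia, fell by 2.10, 2.13 and 2.36. NHEJ1 was no longer called at 24 h without the first 24 h library (adjusted p = 0.0838). The lower count at 24 h was 5 without the second 24 h library, and the higher count at 12 h was 6 without either 24 h library.

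**Figure D4:**
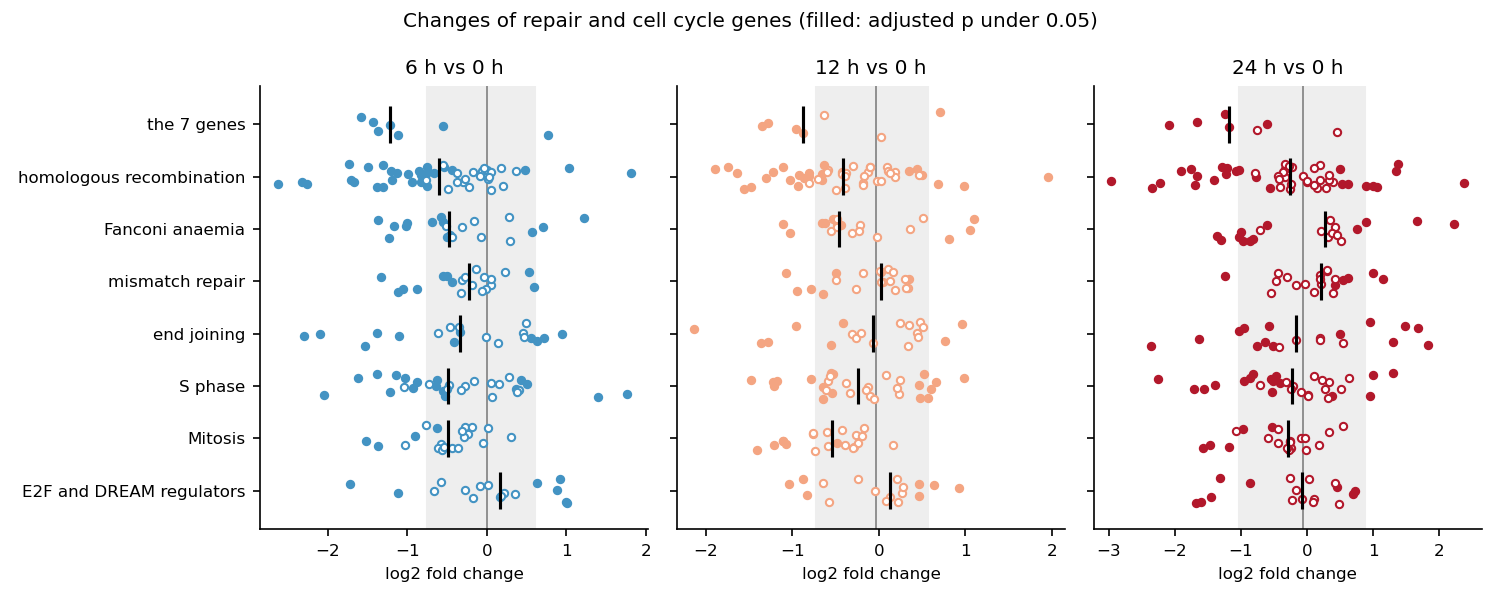
Log2 fold changes against normoxia (x axis) of the 7 genes and of 7 lists of repair and cell cycle genes (y axis) at 6, 12 and 24 h, with 1 point for each gene, filled where the adjusted p was under 0.05, a black line at the median of each list, and a grey band from the lower to the upper quartile of all genes tested around their median. The median of the 7 genes (-1.22, -0.88 and -1.18) was below that of each list at each time. The 7 genes have long transcripts and were chosen with earlier results of these data known, and all values are shown without the offset for length.

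Genes of the cell cycle were set beside the repair genes because homologous recombination genes are transcribed with S phase genes in cycling cells. Of 30 S phase genes, 12, 10 and 12 were lower and 5, 7 and 4 higher, with medians of -0.49, -0.24 and -0.23. The lower genes were 40%, 33.3% and 40% of the list, against 27.7%, 27.1% and 31.3% of all genes, and the higher ones 16.7%, 23.3% and 13.3%, against 25.1%, 24.2% and 29.9%. Scaled by library size alone, 16, 17 and 21 were lower and 2, 0 and 0 higher. E2F2, an activator of S phase transcription, fell by 1.62 at 6 h and 2.26 at 24 h on the log2 scale, and the fork protection factor TIMELESS fell by 0.88, 1.17 and 1.72. CCNE1, the cyclin of the G1 to S transition, rose by 1.40, 0.66 and 0.99, and GINS2, part of the replicative helicase, rose by 0.57 at 12 h and 1.30 at 24 h. The lower count at 12 h was 5 without the first or the third normoxic or the first 12 h library, and that at 24 h was 7 without the first or the third normoxic or the second 24 h library. The higher count at 6 h was 2 without the first or second normoxic library and 3 without the third normoxic library or without the first or second 6 h library, and that at 12 h was 4 and 1 without the first and second normoxic library and 3 without the second 12 h library.

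Of 20 genes of mitosis, 4, 6 and 5 were called lower and 0 were called higher at the 3 times, with medians of -0.48, -0.54 and -0.29. The upper quartiles of the list were -0.27, -0.28 and -0.075, and the medians of all genes tested were -0.0021, -0.033 and -0.065. The lower shares of 20%, 30% and 25% were near or below the 27.7%, 27.1% and 31.3% of all genes, and higher genes were 25.1%, 24.2% and 29.9% of all genes. Scaled by library size alone, 7, 12 and 13 were lower and 0 higher. MKI67, a marker of cycling cells, stood at a mean of 197 CPM in normoxia and 162, 173 and 66.2 CPM at 6, 12 and 24 h, and was called lower at 24 h (log2 fold change -1.57, adjusted p = 0.0184, edgeR), as was the checkpoint kinase BUB1B (-1.46, adjusted p = 0.00725). Without the second 24 h library neither was called (adjusted p = 0.105 and 0.056), and 0 of the 20 were called lower at 24 h, while 2 were without the first normoxic library. The count at 6 h was 2 without the first normoxic or the third 6 h library. The count at 12 h was 2 without the first normoxic or the first 12 h library, 3 without the second or the third normoxic or the third 12 h library and 11 without the third 6 h library. Without the third 6 h library 1 gene was also called higher at 6 h and at 24 h.

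Of 17 regulators of the E2F and DREAM families, 2, 3 and 5 were lower and 5, 4 and 3 higher. The lower genes were 11.8%, 17.6% and 29.4% of the list, against 27.7%, 27.1% and 31.3% of all genes, and the higher ones 29.4%, 23.5% and 17.6%, against 25.1%, 24.2% and 29.9%. The balance at 12 h turned under library size alone, with 3, 6 and 12 lower and 4, 1 and 0 higher. RBL1, the pocket protein p107, fell by 1.73, 1.04 and 1.69 on the log2 scale, and E2F4, which binds it in the repressor complex, rose by 0.88, 0.93 and 0.70. FOXM1, an activator of mitotic genes, was lower at 24 h by 1.61, and LIN9, a subunit of the core shared by activator and repressor complexes, was higher by 0.47 at 12 h and 0.73 at 24 h. The lower counts at 6 and 12 h were 4 and 5 without either 24 h library. The higher count at 12 h was 1 without the first normoxic library and 2 without the third normoxic or any 1 of the 12 h libraries.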

How the data were processed

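The authors trimmed single-end reads with Trimmomatic, aligned them with STAR to GRCh38 and counted them per gene with featureCounts, and the deposited values are raw counts for 60676 genes in 11 libraries. All columns were matched to a sample by title and 0 were left over. A single batch of libraries was built and sequenced, per the labels. Strand setting, the handling of reads that align to several genes, and the STAR and featureCounts versions are not given in the sources used here. Another 24 h replicate of the study was not analysed here.

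Genes were filtered with filterByExpr (minimum count 10, minimum total 15), which kept 19981. Counts were scaled with TMM factors and fitted with edgeR 4.0.16 in R 4.3.3 (quasi-likelihood test, 4 times in 1 fit, Benjamini-Hochberg adjustment over all genes tested). The common biological coefficient of variation was 19.6%. The study's own test, limma-voom (limma 3.58.1), and DESeq2 1.42.0 were alternatives, with other scalings, filters, covariates and samples, 22 in all. The fitting script was tested on simulated data. Partner ratios were log2 ratios of counts plus 0.5 per kilobase, compared with exact permutation tests. Gene positions, lengths and GC content came from GENCODE release 44, which held 60357 of the identifiers, and promoters from RefSeq.

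The genes and lists were chosen with earlier results of these data known. Named beside the 7 genes are partners of theirs, annotated copies, the 2 called genes with the highest and the 2 with the lowest 24 h change of each list, and the 2 protein-coding genes with the most similar pattern. FBXO11 and FANCD2OS were named because they overlap a gene on the other strand. Some genes of that rule are not reported here.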

Additional observations from a re-analysis of the deposited data

Results flagged for a closer look

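In the contrasts of 12 h with 6 h and of 24 h with 12 h, PALB2 was the 1 gene of the 7 that was called. The call was from 12 h to 24 h, where 28.4% of all genes tested were called. BRCA2 moved by more from 6 h to 12 h (0.95 ± 0.33 SE) and was not called (adjusted p = 0.119, edgeR). Whether PALB2 differed from the other genes was not tested. The log2 fold change of PALB2 from 12 h to 24 h was -0.63 ± 0.21 (SE, adjusted p = 0.0403, edgeR), with 20.8 and 15.4 CPM at 24 h against 23.4, 30.4 and 29.9 CPM at 12 h. The value was negative under all 22 alternatives, from -1.03 to -0.44, and passed the threshold under 10 of them.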

How the results depend on the processing

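The calls of BRCA1, FANCD2 and PMS2 against normoxia held under all 22 alternatives, and so did that of BRCA2 at 6 h. With library size alone the median of the 7 genes was -1.54, -1.34 and -2.11 at 6, 12 and 24 h and -0.78 from 12 h to 24 h, where the median of all genes moved by more than 0.1 (to -0.45 from 12 h to 24 h). In the last comparison 2 of the 7 were then called, the share of all called genes that were higher went from 53.3% to 15.5%, and from 6 h to 12 h it went from 38.02% to 14.3%. With the length and GC offset the median was -0.86 at 24 h and -0.10 from 12 h to 24 h, and with the replicate block added to the offset it was -0.85 and -0.093. At 24 h, 3 of the 7 were called in limma-voom with quality weights. From 6 h to 12 h, the number called was 2 with quality weights, without a filter and with the offset, and 1 with DESeq2, with the block and offset together, and with only the libraries of these times. From 12 h to 24 h it was 2 without a filter and 0 with quality weights, the replicate block, the offset, the block and offset together, and only the libraries of these times. Over the 11 fits that left out 1 library, the number called ranged from 0 to 2 from 6 h to 12 h and from 0 to 5 from 12 h to 24 h, and the median from -1.59 to -1.04 at 24 h and from -0.82 to -0.15 from 12 h to 24 h. A lone 24 h library was assumed to vary like the other groups. The cause of these shifts was not tested.

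Signs turned in the following cases. PALB2 at 12 h was -0.44 with library size alone and -0.074 with at least 10 counts in every library, and ranged from -0.072 to 0.14 over the fits that left out 1 library. MSH6 at 24 h was -0.37 with library size alone and ranged from -0.14 to 0.81. From 6 h to 12 h, BRCA1 was -0.0081 in DESeq2, -0.0074 with its size factors, -0.13 with library size alone and -0.0024 with the stricter filter, and ranged from -0.045 to 0.062. In that comparison FANCD2 ranged from -0.031 to 0.34 and MSH6 from -0.15 to 0.018. From 12 h to 24 h, BRCA2 was 0.19 with the offset and 0.11 with the block and offset, PMS2 was 0.073 and 0.075, and BRCA2 ranged from -1.32 to 0.48 and MSH6 from -0.82 to 0.11.

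Replicate numbers are shared between the groups in the labels, but same-numbered libraries did not deviate together (correlations from -0.156 to 0.207 over all tested genes), so they were not treated as pairs. A fit with the replicate block called 7, 5, 5, 0 and 0 of the 7 genes in the 5 comparisons, and lost the PALB2 call from 12 h to 24 h (-0.66, adjusted p = 0.0557, edgeR). Depth limits the smallest values, such as the 73 counts of BRCA1 and 56 counts of FANCD2 in the second 24 h library.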

Other observations

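Several of the 7 genes start beside a neighbour that is read from the other strand, and the neighbours, named after their values were seen, did not all move with them. NBR2, a noncoding gene head to head with BRCA1, stood at a mean of 12.2 ± 2.42 CPM in normoxia (SD, n = 3) and at 3.70, 3.54 and 4.203 CPM at 6, 12 and 24 h, and was called lower at each time (log2 fold change -1.69, -1.78 and -1.54, adjusted p = 0.000423, 0.000381 and 0.00202, edgeR), as BRCA1 was. DCTN5, a dynactin subunit beside PALB2, stood at 61.5 ± 2.28 CPM in normoxia and at 115, 116 and 113 CPM in hypoxia, and was called higher at each time (0.91, 0.92 and 0.87, adjusted p = 0.000814, 0.000871 and 0.00158), while PALB2 was lower at 6 and 24 h. AIMP2, a scaffold of the aminoacyl-tRNA synthetases beside PMS2, was lower at 6 h (-0.56, adjusted p = 0.0372) and had values of -0.16 and 0.25 at 12 and 24 h (adjusted p = 0.548 and 0.355), where PMS2 was lower at all 3 times. The differences between neighbours were not tested.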
